A study of Mus musculus with 17 samples.

Results

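The genes described here are 43 genes of the DNA replication machinery, named as a list: origin licensing factors, the replicative helicase and its activators, the sliding clamp and its loader, the replicative polymerases, enzymes of nucleotide supply and a few genes that act beside them. A probe set was taken where the array annotation gave it a single gene symbol and that symbol was on the list, and the brightest such probe set over all arrays stood for the gene. This found 42 of the 43 genes among 18193 genes on the array, and Chaf1a was not analysed here. All 42 entered every test, with no filter on low values.

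The study compared radial glial subtypes. Cells of the embryonic cortex were sorted by flow cytometry on green fluorescent protein (GFP), which hGFAP-eGFP mice express from the promoter of the human astrocyte and radial glia gene GFAP. Total RNA was hybridised to 17 Affymetrix arrays in 5 groups. At embryonic day 14 (E14) there were 4 arrays of GFP-high and 3 of GFP-low cells also selected for Prominin (replicates 1 to 4 and 1 to 3), and 3 arrays each of GFP-high and GFP-low cells whose titles name no Prominin selection, called ungated here. At E18 there were 4 arrays of GFP-positive, Prominin-selected cells (replicates 2 to 5). All 5 groups carry the same transgene, and GFP marks the cells in which that promoter is active or was recently active. The labels do not say whether the arrays of a group are of separate embryos or litters. The spread behind each p-value is that between arrays and may be technical, and precision is limited by how few arrays each group holds. The MessageAmp II kit was used to label all 11 Prominin-selected arrays and ungated GFP-high replicate 1, and the Affymetrix in vitro transcription kit the other 5 ungated arrays.

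DNA replication begins when the origin recognition complex, Cdc6 and Cdt1 load the ring of Mcm proteins onto origins, and it fires when Cdc45 and the GINS complex join that ring and kinases including cyclin E with Cdk2 act on it. Polymerase alpha with primase starts each strand, replication factor C loads the clamp PCNA, and polymerases delta and epsilon extend the strands. Most of these genes are transcribed as cells enter S phase, many under E2F control. In the embryonic cortex, radial glia and basal progenitors divide, whereas neurons have left the cell cycle.

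Levels below are log2 of the deposited intensity plus 16 after quantile normalisation, fold changes are on that scale and understate changes of dim genes, and a level of one gene is never set against a level of another. Errors are SD for levels and SE for differences. A gene was called higher or lower where the adjusted p of limma, Benjamini-Hochberg over 18193 genes, was under 0.05. The lowest group mean of any of the 42 genes was 4.88 (Tyms, ungated GFP-low), against 4.81 for the brightest never-spiked control, so Tyms there was close to background.

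The labels were set against marker genes. Prom1, which encodes Prominin-1, was at 10.93 ± 0.09 (n = 4) in Prominin-selected and 10.79 ± 0.04 (n = 3) in ungated GFP-high cells, and the difference of 0.14 ± 0.15 was not called (limma, adjusted p = 0.585). In GFP-low cells it was 1.56 ± 0.16 higher with the selection, at 10.19 ± 0.08 against 8.63 ± 0.29. At E18 it was at 8.84 ± 0.17 despite the selection. Pax6, a radial glial transcription factor, followed the GFP gate, at 10.90 ± 0.14 in ungated GFP-high and 7.83 ± 0.56 in ungated GFP-low cells. Microglial and endothelial marker lists stayed near background in all 5 groups, with array means from 4.77 to 5.47 and from 4.42 to 5.50. Control signals moved with the groups: the 5′ probe set for 18S ribosomal RNA read 4528 to 9350 on the E14 Prominin-selected arrays and 432 to 2106 on the ungated arrays, and the Gapdh 3′ minus 5′ difference was 0.54 to 2.29 against −0.25 to 0.18. At E18 the ranges were 1272 to 6725 and −0.21 to 1.00, each highest in replicate 3. The spike-in dap read 282 to 967 on the ungated arrays and 284 to 1287 at E18. On the E14 Prominin-selected arrays it read 0.112 to 6.01, except 984 in GFP-high replicate 1. Their part in the results that follow was not tested, except by leaving out E18 replicate 3 and Prominin-selected GFP-high replicate 1.

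Across the 5 groups the replication genes were highest in ungated GFP-high cells. The mean over the 42 genes was 9.38 to 9.42 on those 3 arrays, 8.53 to 8.75 in Prominin-selected GFP-high, 8.03 to 8.30 in Prominin-selected GFP-low, 7.59 to 7.80 at E18 and 7.45 to 7.88 in ungated GFP-low cells. No 2 of these 5 ranges overlapped except the last 2. By group mean, 40 of the 42 genes were highest in ungated GFP-high cells. The other 2, the cyclin gene Ccne1 and the origin recognition subunit Orc1, were highest in Prominin-selected GFP-high cells. The lowest group was ungated GFP-low for 20 genes and E18 for 18. Pcna and Rpa3 were lowest in Prominin-selected GFP-low cells, Orc6 in Prominin-selected GFP-high cells and Orc1 in ungated GFP-high cells. The place of Orc1 rests on ungated GFP-high replicate 3, at 4.46 and below the background control of 4.81. The other arrays of that group were at 5.96 and 6.01. For 29 of the 42 genes all 3 ungated GFP-high arrays lay above all 14 other arrays, as did 5.88% of all genes.

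**Figure D1:**
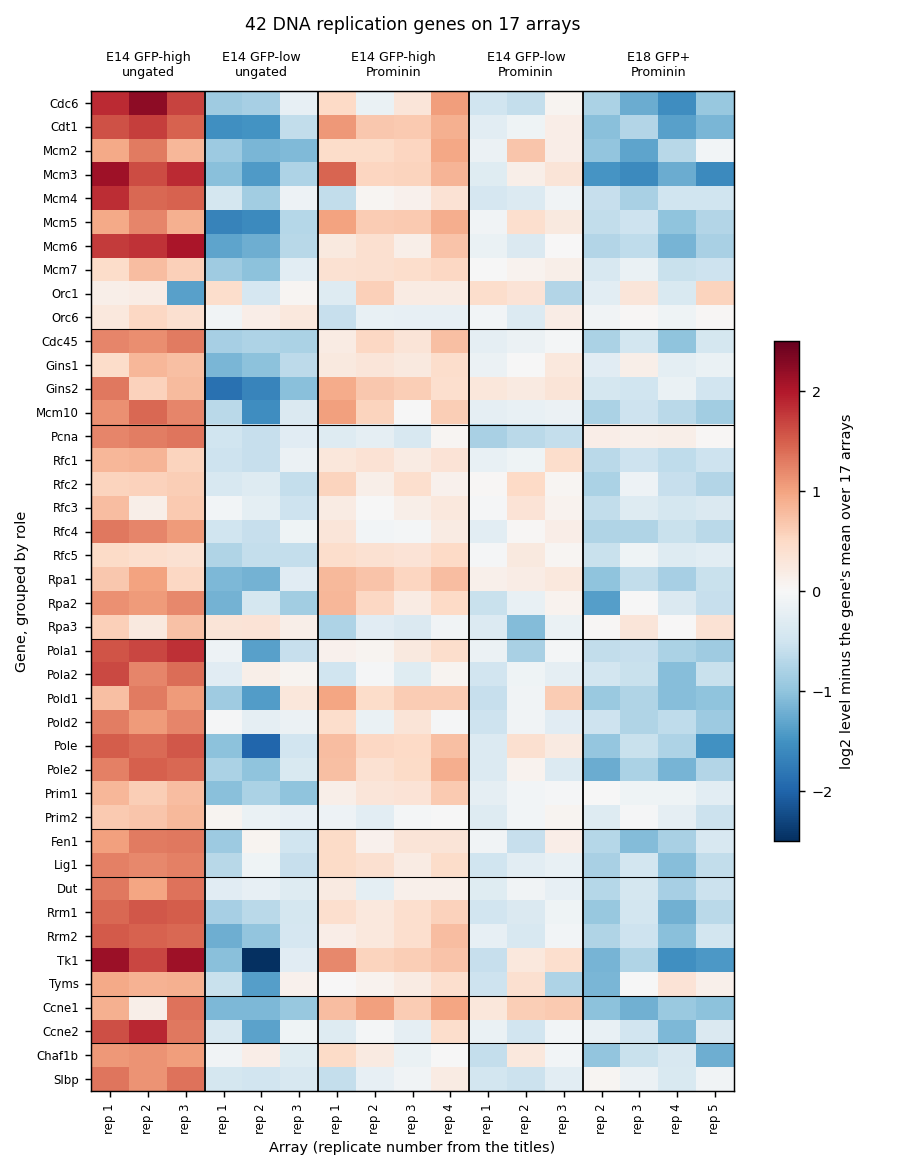
Log2 level of each of the 42 genes (rows, grouped by role) on each of the 17 arrays (columns, grouped by sort and age), shown as the difference from the gene's mean over all arrays, red above and blue below. The 3 ungated GFP-high columns are red in nearly every row, while Orc1, Orc6 and Rpa3 show little of that pattern.

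The ungated E14 comparison set GFP-high against GFP-low cells with no selection for Prominin. Replication genes of every role were higher in the GFP-high cells: 38 of 42 were called higher and none lower, with a median of 1.71 (3.27-fold), against 15.8% of all genes called, 7.61% higher and 8.16% lower. At an unadjusted p under 0.05 the count was 39, against 5156 of all 18193. In 40 of the 42 genes every GFP-high array lay above every GFP-low array, as in 17.1% of all genes. Neuronal genes moved the other way, with 18 of 20 postmitotic neuron markers called lower and a median of −2.32; their mean was 8.34 to 8.56 on the GFP-high and 10.73 to 10.97 on the GFP-low arrays. Radial glia markers were higher in 17 of 18, with array means of 10.20 to 10.27 against 7.68 to 8.17. Mitosis genes were higher in 18 of 18 (median 2.75) and basal progenitor markers in 9 of 10 (median 1.84). The part of these changes in cell make-up was not tested. In sorted bulk samples, fewer cells of a type and less RNA per cell cannot be told apart.

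Licensing genes made the largest group of changes, with 8 of 10 higher and a median of 2.21. Mcm6, a subunit of the replicative helicase ring, was between 10.94 and 11.23 on the 3 GFP-high arrays and at 7.87, 7.98 and 8.50 on the GFP-low arrays. The groups were far apart, a difference of 2.94 ± 0.22 or 7.67-fold (limma, adjusted p = 0.000643). Mcm3, in the same ring, was at 10.41, 9.92 and 10.16 against 7.25, 6.88 and 7.52, a difference of 2.95 ± 0.23 or 7.73-fold. Cdt1, which with Cdc6 brings the ring to origins, was at 10.60, 10.74 and 10.48 against 7.47, 7.52 and 8.38. GFP-low replicate 3 was the highest of its group here, as it was for Mcm6 and Mcm3, and Cdt1 still differed by 2.82 ± 0.28 or 7.05-fold (limma, adjusted p = 0.0011). Cdc6 was 2.57 ± 0.26 and Mcm2 2.08 ± 0.19 higher.

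Orc6, an origin recognition gene, stood apart from the Mcm genes. Orc6 was at 8.93, 9.17 and 9.06 against 8.57, 8.84 and 8.93. The lowest GFP-high and the highest GFP-low array were both at 8.93 after rounding, without overlap, and the difference of 0.28 ± 0.18 was not called (limma, adjusted p = 0.394). Orc1 was at 5.96, 6.01 and 4.46 against 6.25, 5.40 and 5.86, overlapping, with a difference of −0.36 ± 0.45 (limma, adjusted p = 0.674). The value of 4.46, in GFP-high replicate 3, was below the background control. A second Orc1 probe set, slightly dimmer over the 17 arrays, was called higher by 1.70 ± 0.34 (limma, adjusted p = 0.0178), so the result for Orc1 depends on the probe set.

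Further along the pathway, all 4 genes of helicase activation were higher (median 2.08), Cdc45, part of the active helicase, by 2.03 ± 0.16. All 8 polymerase and primase genes were higher (median 1.70): Pola1, the catalytic subunit of polymerase alpha, by 2.38 ± 0.32 and Pold2, an accessory subunit of polymerase delta, by 1.32 ± 0.17. Of these 8, Pold1 and Prim2 kept the call in only 1 and 2 of the 6 fits without 1 array. The lagging-strand nuclease Fen1 and the ligase Lig1 were higher by 1.67 ± 0.27 and 1.70 ± 0.20.

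The clamp, its loader and the single-strand binding proteins had the smallest median, 1.16, with 7 of 9 called higher. Pcna, the clamp, was at 12.85, 12.89 and 12.96 on the GFP-high and 11.13, 11.05 and 11.34 on the GFP-low arrays, a difference of 1.73 ± 0.17 (limma, adjusted p = 0.00106). The clamp loader subunit Rfc1 was 1.16 ± 0.20 higher. Of the 3 subunits of replication protein A, which coats single-stranded DNA, Rpa2 was 1.96 ± 0.22 and Rpa1 1.60 ± 0.29 higher. The smallest subunit, Rpa3, was at 9.72, 9.38 and 9.86 against 9.46, 9.47 and 9.28, with overlapping groups and a difference of 0.25 ± 0.19 (limma, adjusted p = 0.473). The other gene not called was the clamp loader subunit Rfc3 (0.80 ± 0.23, limma, adjusted p = 0.0627), named after its values were seen to complete the count.

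All 5 genes of nucleotide supply were higher, with a median of 2.15. Tk1, the thymidine kinase of the salvage route, was at 9.28, 8.82 and 9.26 against 6.10, 4.23 and 6.86. The GFP-low arrays spread widely and replicate 2 was below the background control, but none reached the GFP-high arrays, and the difference of 3.39 ± 0.62 (10.5-fold) was the largest of the 42 (limma, adjusted p = 0.0111). Both the size and that rank rest on replicate 2: without it the difference was 2.64 ± 0.30 (6.24-fold; limma, adjusted p = 0.00464), behind Mcm6 (2.87), Mcm3 (2.78) and Cdt1 (2.68). With a pseudocount of 1 in place of 16 the call was lost (limma, adjusted p = 0.0962). Rrm2, the regulated subunit of ribonucleotide reductase, was 2.36 ± 0.24 higher. Tyms, thymidylate synthase, was 1.51 ± 0.36 higher (limma, adjusted p = 0.0305) and lost the call without any of the 3 GFP-high arrays or GFP-low replicate 1, with adjusted p from 0.0856 to 0.0921.

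Both cyclin E genes were higher. Ccne1 was at 8.00, 7.27 and 8.48 against 5.99, 5.99 and 6.18, and Ccne2 at 7.87, 8.14 and 7.57 against 5.84, 4.91 and 6.14. Neither pair of groups overlapped, and the differences were 1.86 ± 0.31 and 2.23 ± 0.34. Slbp, the histone mRNA binding protein, was 1.71 ± 0.17 higher, and Chaf1b, a subunit of the histone chaperone that works behind the fork, 1.16 ± 0.19. Without ungated GFP-high replicate 1, the sole ungated array of the MessageAmp II kit, 35 genes were called higher.

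**Figure D2:**
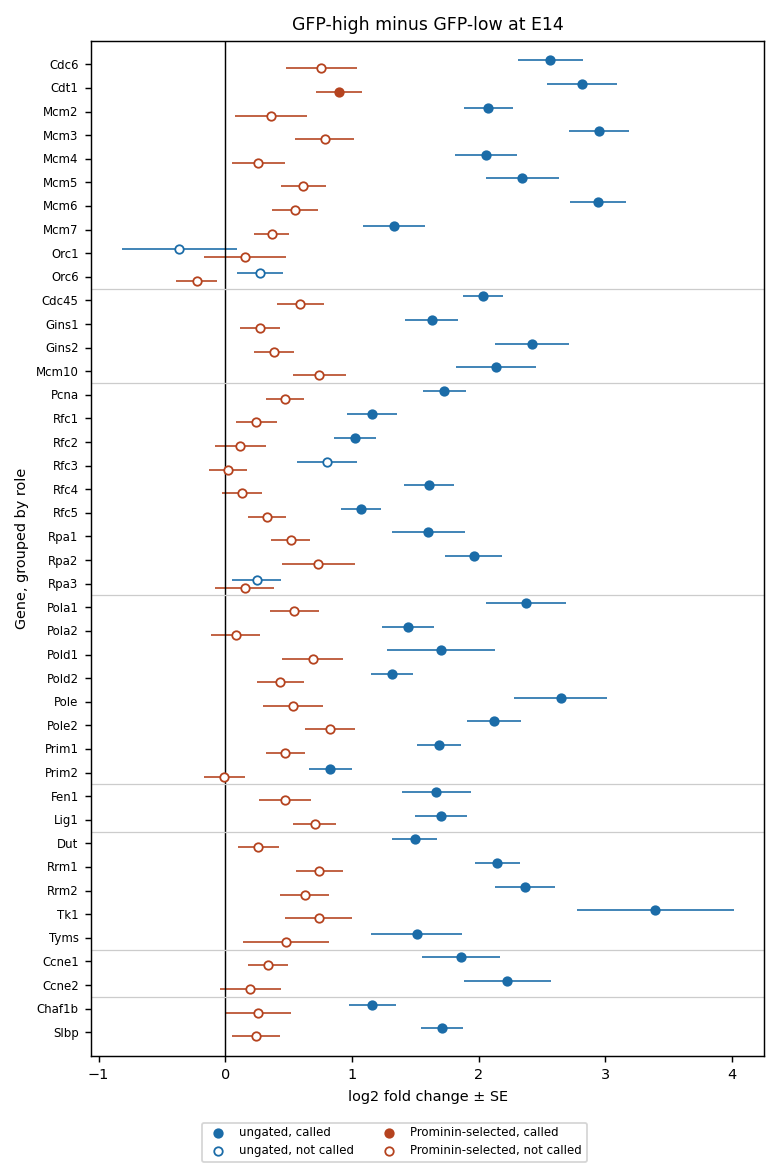
GFP-high minus GFP-low at E14 for each of the 42 genes (rows, grouped by role) as log2 fold change with SE, in ungated (blue) and Prominin-selected cells (red), filled where called by limma. The blue points lie mostly between 1 and 3, with 38 filled, and the red points between −0.23 and 0.90, with Cdt1 alone filled.

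The promoters of the genes at both ends of this comparison were read from RefSeq (build GRCm38.p6), as the 250 bases before the transcript start that the promoter table uses, since many replication genes are known E2F targets. For Mcm3, Mcm6, Rpa3 and Orc6 that start is the outer end of the RefSeq gene. For Tk1 it lies 73 bases and for Orc1 3749 bases inside the gene, so all of the Orc1 window and part of the Tk1 window lie within the annotated gene. They are given 5′ to 3′ on the gene's strand for the 3 largest rises and the 3 smallest changes, with capitals on 4 forms of the E2F site in either direction, which are the letters TTCCCGC as well as TTCGCGC and also TTGCCGC or else TTGGCGC. Tk1 lies at chr11:117826015-117826264 (minus strand), Mcm3 at chr1:20820313-20820562 (minus), Mcm6 at chr1:128359706-128359955 (minus), Rpa3 at chr6:8259142-8259391 (minus), Orc6 at chr8:85299382-85299631 (plus) and Orc1 at chr4:108579204-108579453 (plus).
Tk1: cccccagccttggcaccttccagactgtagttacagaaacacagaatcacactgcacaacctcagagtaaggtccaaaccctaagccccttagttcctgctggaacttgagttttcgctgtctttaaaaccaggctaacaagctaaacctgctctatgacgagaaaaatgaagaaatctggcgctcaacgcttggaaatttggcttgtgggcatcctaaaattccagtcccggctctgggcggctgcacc
Mcm3: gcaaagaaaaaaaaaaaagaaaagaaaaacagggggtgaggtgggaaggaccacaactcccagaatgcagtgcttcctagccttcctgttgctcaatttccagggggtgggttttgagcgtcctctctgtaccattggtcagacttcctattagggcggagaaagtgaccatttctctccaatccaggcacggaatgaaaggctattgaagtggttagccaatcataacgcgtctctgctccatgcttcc
Mcm6: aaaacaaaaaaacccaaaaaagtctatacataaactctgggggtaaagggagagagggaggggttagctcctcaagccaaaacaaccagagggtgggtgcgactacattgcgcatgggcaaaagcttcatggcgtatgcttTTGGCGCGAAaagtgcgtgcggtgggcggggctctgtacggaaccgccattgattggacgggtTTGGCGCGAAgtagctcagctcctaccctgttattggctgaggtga
Rpa3: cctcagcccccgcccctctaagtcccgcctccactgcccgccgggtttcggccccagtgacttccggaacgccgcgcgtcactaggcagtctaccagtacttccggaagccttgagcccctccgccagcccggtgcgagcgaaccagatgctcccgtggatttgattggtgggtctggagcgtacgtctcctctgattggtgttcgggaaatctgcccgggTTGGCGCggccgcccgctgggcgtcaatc
Orc6: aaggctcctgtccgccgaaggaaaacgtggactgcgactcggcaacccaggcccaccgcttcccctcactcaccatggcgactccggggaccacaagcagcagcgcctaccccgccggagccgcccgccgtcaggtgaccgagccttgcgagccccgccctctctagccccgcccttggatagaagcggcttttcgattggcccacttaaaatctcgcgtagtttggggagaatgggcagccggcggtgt
Orc1: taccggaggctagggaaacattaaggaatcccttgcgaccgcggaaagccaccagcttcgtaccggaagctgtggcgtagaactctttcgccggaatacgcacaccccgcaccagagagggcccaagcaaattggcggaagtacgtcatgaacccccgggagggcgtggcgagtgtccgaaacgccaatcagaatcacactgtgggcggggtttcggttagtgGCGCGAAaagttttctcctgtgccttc
The Mcm6 window holds 4 matches in 2 overlapping pairs, each a TTGGCGC on the gene's strand that runs into a TTCGCGC on the other, with first bases 109 and 106, and 46 and 43, before the start used. Rpa3 and Orc1, among the smallest changes, hold 1 match each, 29 and 27 bases before the start used, while Tk1 and Mcm3 hold none in this window. The small change of Orc1 is that of the probe set used, and its other probe set was called higher. Letters of this kind were found in 14 of the 35 measured genes with a promoter in the table (40%) and in 13.2% of 14453 genes. Over these 35 genes the table has 40 starts, of which 18 lie inside the RefSeq gene. The letters CCAAT, on either strand, were in 21 of 35 (60%) and in 39.4% of all, and the median GC content was 63.6% and 58.8%. The 14 genes with E2F letters had a median change of 1.82 in the ungated comparison and the 21 without them 1.71. A match is a description of the letters only, and matches may overlap.

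In Prominin-selected cells the same comparison gave much smaller differences. Of the 42 genes, 40 had a higher mean in GFP-high cells, with a median of 0.45 (1.37-fold), but 1 was called, Cdt1, against 1.68% of all genes called, 0.478% higher and 1.2% lower. At an unadjusted p under 0.05 there were 24 genes, against 2440 of all 18193. In 20 genes every GFP-high array was above every GFP-low array, as in 5.72% of all genes. Postmitotic neuron markers were lower in 8 of 20 (median −0.70; array means 9.21 to 9.34 against 9.96 to 10.06), and Cajal-Retzius markers in 6 of 8 (median −1.52; 5.79 to 5.98 against 7.10 to 7.66). Mitosis genes were higher in 6 of 18 (median 0.73), as were radial glia markers in 6 of 18 (median 0.77). The 18S signal was higher on the GFP-high arrays (6763 to 9350) than on the GFP-low arrays (4528 to 5438), and its part in the result was not tested.

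Cdt1 was at 10.09, 9.68, 9.65 and 9.89 on the GFP-high and 8.74, 8.89 and 9.16 on the GFP-low arrays. The groups did not overlap, and the difference was 0.90 ± 0.18 or 1.86-fold (limma, adjusted p = 0.0338). The call held without GFP-high replicate 2, and was lost without any other of the 7 arrays, with adjusted p from 0.0611 to 0.109, and with the replicate block (adjusted p = 0.164).

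The next largest differences were in Pole2, a subunit of polymerase epsilon (0.83 ± 0.20, limma, adjusted p = 0.0589), Mcm3 (0.79 ± 0.23, adjusted p = 0.13) and Cdc6 (0.76 ± 0.28, adjusted p = 0.242). Mcm6 was at 9.44, 9.58, 9.35 and 9.90 against 9.02, 8.83 and 9.20. Its groups were separate but close, with a difference of 0.55 ± 0.18 (limma, adjusted p = 0.19). Pcna was at 11.29, 11.39, 11.22 and 11.68 against 10.81, 10.94 and 11.03, also separate, and differed by 0.47 ± 0.15 (limma, adjusted p = 0.159). Tk1 was 0.74 ± 0.27 (limma, adjusted p = 0.233) and Rrm2 0.63 ± 0.19 above (limma, adjusted p = 0.152). Of the cyclin E genes, Ccne1 differed by 0.34 ± 0.16 and Ccne2 by 0.20 ± 0.24, and neither was called. The differences nearest 0 were in the primase subunit Prim2 (−0.01 ± 0.16), Rfc3 (0.02 ± 0.15) and the polymerase alpha subunit Pola2 (0.08 ± 0.20). Orc6 was 0.23 lower on average (−0.23 ± 0.16, limma, adjusted p = 0.619). Its GFP-high values were 8.08, 8.47, 8.45 and 8.46, within the GFP-low values of 8.60, 8.33 and 8.85 but for replicate 1.

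**Figure D3:**
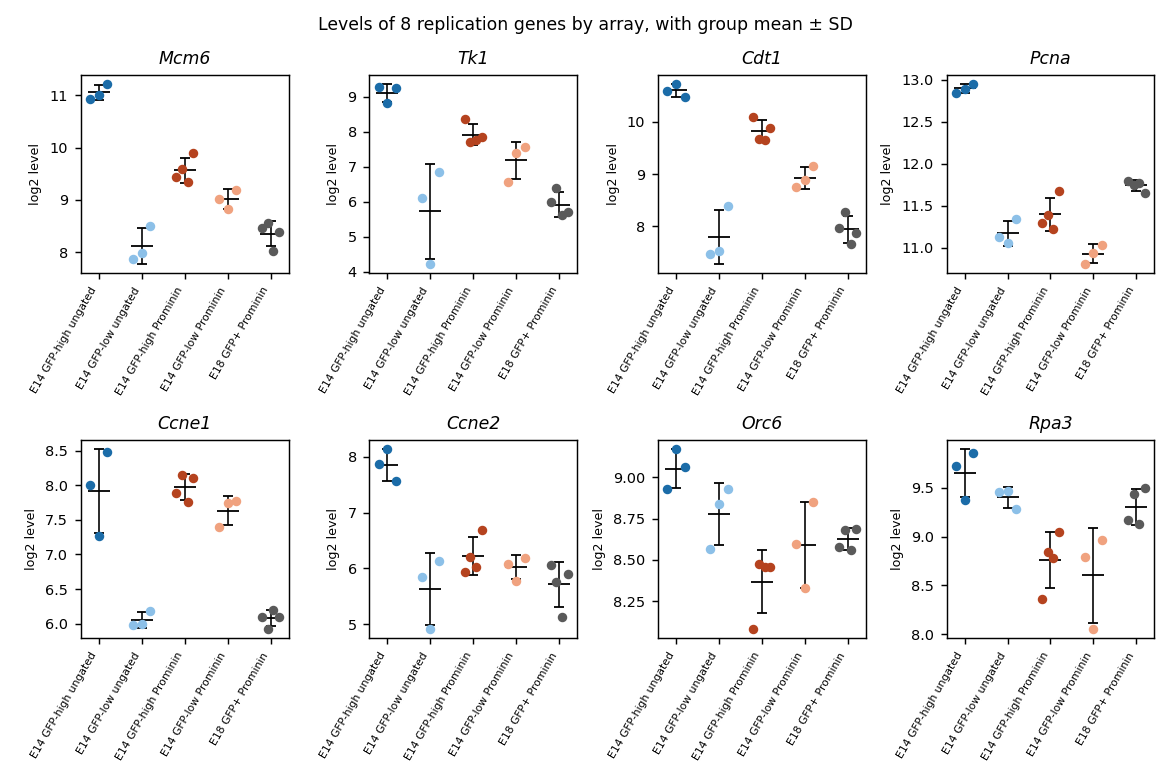
Log2 level of 8 genes on each array (points) in the 5 groups along the horizontal axis, with the group mean and SD as bars; each panel has its own vertical axis. Mcm6, Tk1 and Cdt1 are highest in ungated GFP-high cells, the mean of Pcna at E18 (11.74 ± 0.06) is above the means of both E14 Prominin-selected groups, and Orc6 and Rpa3 spread over about 1 to 2 log2 units in all.

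Whether the GFP comparison itself differed between ungated and Prominin-selected cells was tested as a difference of differences over the 4 E14 groups. It was smaller with the selection for 33 of 42 genes and larger for none, with a median of −1.32, against 7.7% of all genes called, 3.83% lower and 3.87% higher. The largest were Tk1 (−2.66 ± 0.64), Mcm6 (−2.39 ± 0.28), Mcm3 (−2.16 ± 0.34) and Pole, the catalytic subunit of polymerase epsilon (−2.11 ± 0.43). Their limma adjusted p ran from 0.000191 for Mcm6 to 0.0155 for Tk1. Without ungated GFP-low replicate 2, where Tk1 was below the background control, the difference of Tk1 was −1.91 ± 0.42, behind Mcm6 (−2.32), Mcm3 (−1.99) and Gins2 (−1.97), and that of Pole was −1.70. With a pseudocount of 1 Tk1 lost the call (adjusted p = 0.102). By role, all 4 helicase activation genes, both lagging-strand genes and both cyclin E genes were called, with 8 of 10 in licensing, 7 of 8 polymerase and primase genes, 4 of 5 in nucleotide supply, 5 of 9 in the clamp group and 1 of 2 in histone supply. Those nearest 0 were Rpa3 (−0.10 ± 0.32), Orc6 (−0.50 ± 0.24) and Orc1 (0.52 ± 0.56). Mitosis genes moved with them, 18 of 18 with a median of −1.96, as did 14 of 18 radial glia markers, with a median of −1.51. Fen1, Pold2 and Rfc1 were called in the fit of all arrays, but leaving out any of 9, 9 and 6 of the 13 E14 arrays, in that order, ended the call. Rfc5, Rpa1, Prim2, Lig1, Mcm7 and Mcm10 kept the call in 4, 4, 5, 7, 7 and 8 of those 13 fits. The other 24 of the 33 kept it in every such fit.

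Both sides of that difference can be seen by setting each selected group against its ungated counterpart, which uses the same arrays again. In GFP-high cells replication genes were lower with the selection: 24 of 42 were called lower and none higher, with a median of −0.81 (1.75-fold), against 20.7% of all genes called, 8.98% lower and 11.8% higher. In 30 genes the groups did not overlap in that direction, as in 13.6% of all genes. The largest falls were in Ccne2 (−1.64 ± 0.28), Mcm4 of the helicase ring (−1.61 ± 0.22), Pola2 (−1.60 ± 0.20) and Pcna (−1.50 ± 0.14; limma, adjusted p = 3.66e-06). Pcna was at 11.22 to 11.68 on the 4 selected arrays against 12.85 to 12.96 on the 3 ungated ones, more than 1 log2 unit apart. Mcm6 fell by 1.49 and Slbp by 1.44 on the log2 scale. With the mean over a gene's probe sets, Pola2 and Slbp lost the call (limma, adjusted p = 0.547 and 0.24). Pole and Cdt1 kept the call in 0 and 6 of the 7 fits without 1 array. The other 22 of the 24 called genes kept it in every such fit.

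Cyclin E split in GFP-high cells. Ccne1 stayed at 7.89, 8.14, 7.75 and 8.10 with the selection against 8.00, 7.27 and 8.48 without it, a difference of 0.05 ± 0.22 (limma, adjusted p = 0.905). Ccne2 was at 5.94, 6.21, 6.02 and 6.70 against 7.87, 8.14 and 7.57, with no overlap. The ranges of Rpa1 and Rfc5 also overlapped, with differences of −0.03 ± 0.21 and −0.01 ± 0.14. The other probe set of Rpa1 was called lower (−1.21 ± 0.18), so the value for Rpa1 depends on the probe set.

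In GFP-low cells the direction was the opposite: 17 of 42 genes were called higher with the selection and 1 lower, with a median of 0.50 (1.41-fold), against 19.2% of all genes called, 10.8% higher and 8.46% lower. In 19 genes every selected array was above every ungated one, as in 17.8% of all genes. The largest rises were in Gins2 of the GINS complex (1.79 ± 0.22), Ccne1 (1.58 ± 0.23), Mcm5 of the helicase ring (1.51 ± 0.23) and Tk1 (1.45 ± 0.47). Gins2 was at 7.52, 7.45 and 7.55 with the selection against 5.37, 5.59 and 6.20 without it, and Ccne1 at 7.40, 7.74 and 7.77 against 5.99, 5.99 and 6.18. In both, every selected array was above every ungated one. The gene called lower was Rpa3, at 8.79, 8.05 and 8.97 against 9.46, 9.47 and 9.28 (−0.80 ± 0.23, limma, adjusted p = 0.0236), and it lost the call without selected replicate 2 or ungated replicate 1 or 2 (adjusted p from 0.068 to 0.121). Slbp (0.03 ± 0.19), Orc1 (−0.01 ± 0.41) and Prim2 (0.00 ± 0.17) were nearest 0. Tk1 also lost the call without selected replicate 2 or 3 or ungated replicate 1 or 2 (adjusted p from 0.0505 to 0.174). Rrm2, Rfc2, Cdc45 and Pole kept the call in 1, 2, 4 and 5 of the 6 fits without 1 array. The other 12 of the 18 called genes kept it in every such fit.

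In GFP-low cells all selected arrays were of the MessageAmp II kit and all ungated arrays of the other, so within that pair selection and kit cannot be told apart. With the kit as a covariate in the fit of all arrays, whose estimate rests on ungated GFP-high replicate 1, 14 genes were called in GFP-high cells, against 9.28% of all genes, and 1 in GFP-low cells, against 2.05% of all genes. The medians under that covariate were −0.77 and 0.58. In the same comparisons 18S and the Gapdh 3′ minus 5′ difference moved as given above. Postmitotic neuron markers were higher with the selection in GFP-high cells (10 of 20; array means 9.21 to 9.34 against 8.34 to 8.56) and lower in GFP-low cells (12 of 20, with 1 higher; 9.96 to 10.06 against 10.73 to 10.97). In GFP-high cells interneuron markers were also higher in 6 of 9 (median 1.28), and radial glia markers lower in 8 of 18 (median −0.61) and mitosis genes in 11 of 18 (median −1.09). In GFP-low cells Cajal-Retzius markers were higher in 7 of 8 (median 1.79), basal progenitor markers in 8 of 10 with 1 lower (median 0.96), radial glia markers in 10 of 18 (median 1.03), mitosis genes in 12 of 18 (median 1.04) and interneuron markers in 5 of 9 (median 0.81). The part of these markers in the result was not tested.

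**Figure D4:**
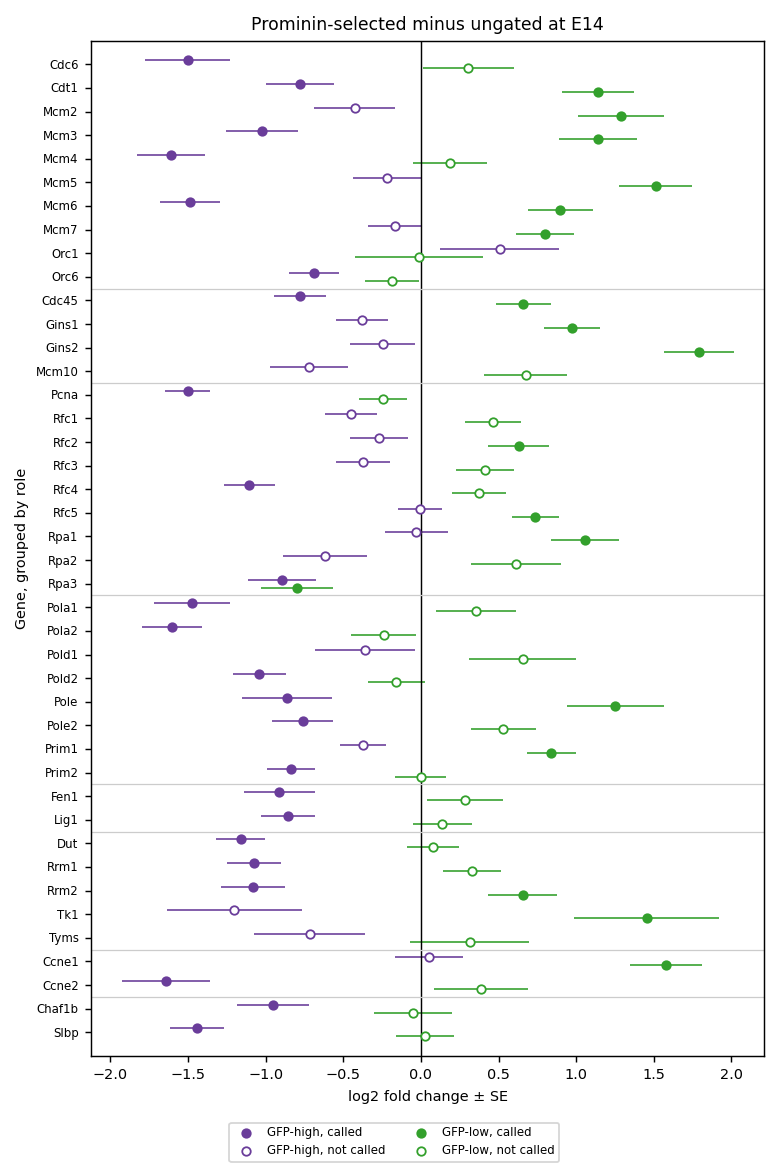
Prominin-selected minus ungated at E14 for each of the 42 genes (rows, grouped by role) as log2 fold change with SE, in GFP-high (purple) and GFP-low cells (green), filled where called by limma. Purple points lie mostly below 0 (24 called lower) and green points mostly above (17 called higher), with Rpa3 called lower in both.

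The age comparisons set E18 GFP-positive against each E14 group within the 11 Prominin-selected arrays, and share the 4 E18 arrays. Against E14 GFP-high cells, 33 of 42 genes were called lower at E18 and none higher, with a median of −0.93 (1.90-fold), against 26.7% of all genes called, 16.5% lower and 10.2% higher. In 32 genes every E18 array was below every E14 array, as in 17.7% of all genes. The largest falls were in Mcm3 (−2.32 ± 0.22, 5.0-fold), Tk1 (−2.00 ± 0.25), Cdt1 (−1.89 ± 0.17) and Ccne1 (−1.89 ± 0.15, limma, adjusted p = 2.91e-06). Mcm3 was at 6.81, 6.71, 7.06 and 6.70 at E18 against 9.74, 8.82, 8.85 and 9.14. Ccne1 was at 6.10, 5.92, 6.20 and 6.10 against 7.89, 8.14, 7.75 and 8.10. Both were tightly grouped at E18 and far below each E14 array.

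By role, 8 of 10 licensing, 4 of 4 helicase activation, 7 of 9 clamp group, 6 of 8 polymerase and primase, 2 of 2 lagging-strand, 4 of 5 nucleotide supply, 1 of 2 cyclin E and 1 of 2 histone supply genes were called lower. Among the genes called lower, Gins1 and Mcm4 each kept the call in only 1 of the 8 fits without 1 array, and Prim1 in 6. The other 30 of the 33 kept it in every such fit. Pcna, Rpa3 and Orc6 had higher means at E18, none of them called. Pcna was at 11.79, 11.75, 11.77 and 11.65 at E18 against 11.29, 11.39, 11.22 and 11.68. All but 1 of its E18 values lay above all the E14 values, and the difference of 0.35 ± 0.14 was not called (limma, adjusted p = 0.0845), but was called higher without E14 GFP-high replicate 4 (0.44). Rpa3 was at 9.17, 9.44, 9.13 and 9.50 at E18 against 8.36, 8.84, 8.78 and 9.05, with every E18 array above every E14 array (0.55 ± 0.21, limma, adjusted p = 0.0778). The groups of Orc6 were separate in the same direction, 8.56 to 8.69 against 8.08 to 8.47 (0.26 ± 0.15, limma, adjusted p = 0.25). Slbp (0.02 ± 0.18), Orc1 (−0.11 ± 0.30) and Prim2 (−0.16 ± 0.15) were nearest 0. Ccne2, at 6.07, 5.76, 5.13 and 5.89 against 5.94, 6.21, 6.02 and 6.70, was not called (−0.50 ± 0.22, limma, adjusted p = 0.126), nor was Tyms (−0.36 ± 0.32, adjusted p = 0.477).

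Against E14 GFP-low cells, 17 of 42 genes were called lower at E18 and 1 higher, with a median of −0.51 (1.42-fold), against 17.4% of all genes called, 11.4% lower and 6.02% higher. In 23 genes every E18 array was below every GFP-low array, as in 18.7% of all genes. Ccne1 (−1.55 ± 0.16), Mcm3 (−1.53 ± 0.23), Tk1 (−1.26 ± 0.27) and Pole (−1.05 ± 0.24) fell the most. Ccne1 was at 7.40, 7.74 and 7.77 in the E14 GFP-low cells, above each E18 array by more than 1 log2 unit. Pcna was the gene called higher, at 10.81, 10.94 and 11.03 in GFP-low cells and 11.65 to 11.79 at E18, a difference of 0.82 ± 0.15 (limma, adjusted p = 0.00275). Rpa3 was also higher at E18 on every array (0.71 ± 0.23), but was not called (limma, adjusted p = 0.054). Prim1, the catalytic primase subunit (−0.01 ± 0.15), Orc1 (0.04 ± 0.32) and Orc6 (0.04 ± 0.16) were nearest 0.

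Of the 18 genes called against GFP-low cells, 9 kept the call whichever of the 7 arrays was left out. Of the others, Mcm2, Mcm6, Rfc1, Rfc3 and Pole2 lost it without any 1 of 5, 4, 2, 2 and 1 of the arrays, in that order. Mcm7, Rfc2, Pold1 and Rfc4 kept it in 1, 3, 5 and 6 of the 7 fits without 1 array. With the replicate number as a block, 4 genes were called, all lower, against 6.2% of all genes, and the median was −0.57. The call of Pcna was lost with median centring (adjusted p = 0.155) and with the block (adjusted p = 0.061).

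Other lists moved with age too. All 18 mitosis genes were lower than in E14 GFP-high cells (median −1.58) and 13 of 18 lower than in GFP-low cells (median −0.87). Basal progenitor markers were lower in 8 of 10 than in GFP-high cells (median −2.34) and in 7 of 10 than in GFP-low cells (median −1.64). Of the radial glia markers, 12 of 18 were lower and 2 higher than in GFP-high cells (median −1.22), and 9 lower and 4 higher than in GFP-low cells (median −0.63). Postmitotic neuron markers were higher than in GFP-high cells in 12 of 20 and lower in 1 (array means 9.93 to 10.09 against 9.21 to 9.34), but against GFP-low cells 4 were higher and 4 lower, with a median of −0.02. Interneuron markers were higher than in either in 7 of 9 (7.98 to 8.02 against 5.76 to 6.44 in GFP-high cells). Oligodendrocyte lineage markers were higher in 3 of 6 and lower in 1 against GFP-high cells (median 1.47). Against GFP-low cells 3 were higher (median 1.68). Their array means were 7.02 to 7.82 at E18, 5.51 to 5.69 in GFP-high and 5.23 to 5.43 in GFP-low cells. Astroglia markers were higher in 5 of 10 against GFP-high and in 3 against GFP-low cells, with 1 lower in each (medians 0.63 and 0.64). Cajal-Retzius markers were lower than in GFP-low cells in 6 of 8 (median −1.56). The part of cell make-up in the result was not tested.

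How far the probe set matters was read from the 21 replication genes with 2 or more probe sets at or above the median gene level of 6.29. Their probe sets gave close values in the GFP comparisons, with a median range within a gene of 0.20 ungated and 0.19 with the selection, against 0.32 and 0.23 over 3772 genes. Across the selection they spread more, with a median range of 1.05 in GFP-high and 0.92 in GFP-low cells, and 13 and 10 of the 21 genes over 1 log2 unit, against medians of 0.79 and 0.77 over all. Probe sets of Mcm7 ran from −2.10 to −0.03 in GFP-high cells and from −0.90 to 1.01 in GFP-low cells. Those of Rrm2 ran from −3.45 to −1.08 and from −1.71 to 0.65, and those of Rfc1 from −1.17 to 1.07 in GFP-high cells. Among called genes, another probe set was called in the opposite direction for Mcm3 in GFP-high and for Mcm7 and Rrm2 in GFP-low cells. In GFP-low cells 4 of the 50 other probe sets were called lower and 7 higher. Probe sets of Rrm1 ran there from −1.82 to 0.33 and those of Fen1 from −1.24 to 0.28. In the ungated GFP comparison no other probe set was called lower, and 27 of the 50 others were called higher. At E18 the median range was 0.47 against GFP-high and 0.37 against GFP-low cells, and 0.55 in each over all. There Rrm2 ran from −1.10 to 0.33 and from −0.47 to 0.85, and Rfc3 from −0.59 to 0.43 and from −0.57 to 0.38. With the mean over probe sets, Rfc3, Pola1, Chaf1b and Rrm2 lost the call against GFP-high cells (limma, adjusted p from 0.051 to 0.737). Against GFP-low cells 12 of the 18 called genes kept it.

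**Figure D5:**
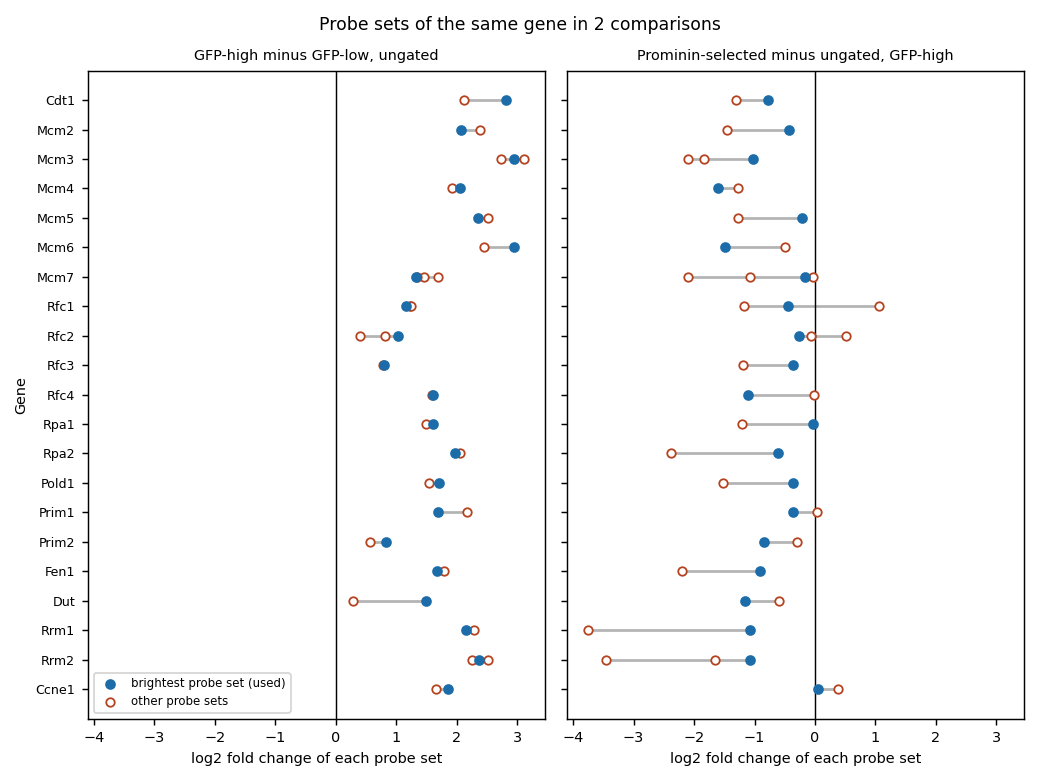
Log2 fold change of each probe set (points; filled blue for the brightest, which stood for the gene) of the 21 genes with 2 or more bright probe sets, joined by a line per gene, for ungated GFP-high minus GFP-low (left) and Prominin-selected minus ungated GFP-high (right). Lines are short on the left, with Dut the longest at 1.22, and long on the right, up to 2.68 for Rrm1.

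Further replication genes, 47 of 50 listed being measured, ran alongside. In the ungated GFP comparison 32 were called higher and none lower, with a median of 1.25, against 7.61% of all genes called higher. Uhrf1, which guides maintenance methylation at the fork, was 3.16 ± 0.37 and the chromatin remodeller Hells 2.70 ± 0.31 higher. With the selection 1 of 47 was called, against 1.68% of all genes. It was Dscc1 of an alternative clamp loader (0.80 ± 0.18), and the median was 0.27. Against E14 GFP-high cells 27 were lower at E18 and 1 higher, with a median of −0.56, led by the licensing inhibitor Gmnn (−1.95 ± 0.23) and Chtf8 (−1.86 ± 0.30), and the kinase gene Cdc7 was the gene called higher (0.63). In GFP-high cells 27 were lower with the selection (median −0.77, Uhrf1 −1.93 ± 0.36), and in GFP-low cells 13 were higher (median 0.34, Mcm9 1.62 ± 0.33). Of all genes, 16.5% were called lower and 10.2% higher at E18 than in E14 GFP-high cells. With the selection, 8.98% of all genes were lower in GFP-high and 10.8% higher in GFP-low cells.

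Of 19 genes of the E2F and Rb network, 12 were higher in ungated GFP-high cells (median 1.31), led by the repressor E2f8 (2.76 ± 0.31) and the cyclin Ccna2 (2.72 ± 0.30). Ccna2 alone was called with the selection (0.83 ± 0.18). At E18, 7 were lower than in GFP-high and 5 lower than in GFP-low cells, led in both by E2f6 (−1.67 ± 0.20 and −1.63 ± 0.22). With the selection in GFP-high cells 12 were lower (median −0.93), among them Cdk2, the partner of cyclin E (−1.82 ± 0.20), and the Rb relative Rbl1 (−1.80 ± 0.24). Of all genes, 7.61% were higher in the ungated comparison and 1.68% were called in the Prominin-selected one. At E18, 16.5% of all genes were lower than in GFP-high and 11.4% lower than in GFP-low cells. With the selection in GFP-high cells 8.98% of all genes were lower.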

How the data were processed

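The deposited table holds intensity values per probe set, made by the authors and scaled alike, with a trimmed mean of 150.0 on every array; the summarisation software was not given in the sources used here. Array medians ran from 24.2 to 45.1, and no 2 arrays were identical. From the deposited intensity values, log2(value + 16) was taken, 64 control probe sets were left out, and the 17 arrays were quantile normalised. Of 45101 probe sets, 34945 had 1 gene symbol, 932 several and 9160 none; the brightest single-symbol probe set stood for each of 18193 genes. All 42 measured genes matched RefSeq by gene identifier.

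Fits used limma 3.58.1 in R 4.3.3, on the 11 Prominin-selected arrays for comparisons among them, the 6 ungated arrays for theirs, and all 17 otherwise, with Benjamini-Hochberg adjustment over all genes. The script was tested on simulated data. Genes named with statistics are the 4 largest, the 3 smallest and any opposite call in each comparison, and 18 genes chosen to cover the roles. The members and lists were chosen with earlier results of these data known. Alternatives were the pseudocount, the deposited scale, median centring, a filter on dim genes, the mean over probe sets, the kit, a replicate block, all arrays in 1 fit, and leaving out each array; 1, without 2 arrays whose control signals stood apart, was added after seeing the data. The labels do not say that a replicate number marks a litter or day, so these numbers were not treated as pairing arrays in the main fits. Residuals of same-numbered arrays correlated from -0.144 to 0.040. With so few arrays per group, these correlations cannot show whether the arrays were paired. Figures used matplotlib 3.10.9.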

Additional observations from a re-analysis of the deposited data

Results flagged for a closer look

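Among the 33 genes named with statistics, 4 values lay far from the rest of their group of 4 arrays, of 66 groups examined; chance flags about 1 in 20 groups. Gins2 was at 7.07 in E18 replicate 4 and at 6.75 to 6.79 on the other arrays of that group. Pola2 was at 5.86 in the same replicate, against 6.37 to 6.46. Mcm2 was at 9.58 in Prominin-selected GFP-high replicate 4, against 9.06 to 9.15. Orc6 was at 8.08 in Prominin-selected GFP-high replicate 1, the E14 Prominin-selected array with the high dap signal, against 8.45 to 8.47.

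For 16 of the genes chosen to cover the roles or at the extremes, the GFP-high minus GFP-low difference was smaller in Prominin-selected than in ungated cells by limma's test of the difference itself, with adjusted p from 0.000191 to 0.0404. In licensing and at the helicase these were Mcm6 (-2.39 ± 0.28), Mcm3 (-2.16 ± 0.34), Cdc6 (-1.81 ± 0.40), Mcm2 (-1.71 ± 0.38) and Cdc45 (-1.44 ± 0.25). Of the clamp, the loader and the polymerases these were Pole (-2.11 ± 0.43), Pola1 (-1.83 ± 0.35), Pcna (-1.26 ± 0.21), Rfc1 (-0.91 ± 0.25) and Pold2 (-0.88 ± 0.25). On the lagging strand and in nucleotide supply these were Tk1 (-2.66 ± 0.64), Rrm2 (-1.74 ± 0.30) and Fen1 (-1.20 ± 0.34). The remaining genes were Ccne2 (-2.03 ± 0.42), Ccne1 (-1.52 ± 0.32) and the histone mRNA gene Slbp (-1.47 ± 0.26). Of the 16, Fen1, Pold2 and Rfc1 kept the call in only 4, 4 and 7 of the 13 fits without 1 array. Tk1 was at -1.91 ± 0.42 without ungated GFP-low replicate 2.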

How the results depend on the processing

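The direction of the median of the 42 genes was the same in every comparison and alternative run. In Prominin-selected cells the GFP comparison called 1 gene, and 0 with a pseudocount of 1, median centring, the replicate block or without the arrays with control signals apart, 3 on the deposited scale or with all 17 arrays in 1 fit, 4 without the dimmest 40% of genes and 7 with a pseudocount of 64; 0 to 1 were called without single arrays. For E18 against E14 GFP-low the count fell from 18 to 4 with the replicate block. For the selection it fell from 24 to 14 in GFP-high cells with the kit as a covariate, and in GFP-low cells from 18 to 11 with median centring and to 1 with the kit. Rrm2 in GFP-low cells turned from 0.65 to -0.23 with the mean over its probe sets. Without single arrays the other counts ran from 35 to 38 (ungated GFP), 30 to 33 and 13 to 18 (E18 against GFP-high and GFP-low), 23 to 24 and 13 to 21 (selection in GFP-high and GFP-low), and 24 to 34 (difference). With the replicate block they were 36, 27, 22 and 16, and 24 for the difference. Median centring moved the share of higher calls over all genes from 38.1% to 21.3% (E18 against GFP-high), 34.6% to 21.2% (against GFP-low) and 56.0% to 37.5% (selection in GFP-low), and the median of all genes from -0.07 to -0.24 in the first, where the 42 genes went from -0.93 to -1.14. Of 38 genes called in the ungated comparison 32 kept the call in every alternative, 23 of 33 and 3 of 18 at E18, 12 of 24 and 0 of 18 for the selection and 17 of 33 for the difference; the cause was not tested.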
